A study of Mus musculus with 4 samples.

Results

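Integrins of wound repair are described here as 10 genes, 5 alpha subunits (Itga2, Itga3, Itga5, Itga6, Itgav) and 5 beta subunits (Itgb1, Itgb3, Itgb4, Itgb5, Itgb6), chosen by symbol out of the 32285 genes of the count tables. Each symbol named 1 row. The tables came from Visium spatial transcriptomics of wildtype mouse tissue that had been flash-frozen, with 1 section each of unwounded facial skin, facial skin on postoperative day 4 (day 4), unwounded oral mucosa and oral mucosa on day 4. The series title places the work in oral wound repair and the Gas6-Axl pathway, and all 4 sections were wildtype with no drug named. Wound type and the number, age and sex of the mice were not given in the sources used here.

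An integrin is a cell-surface receptor made of 1 alpha and 1 beta subunit that ties the cytoskeleton to the matrix outside the cell. In skin and oral lining, basal keratinocytes sit on a laminin-rich basement membrane through α6β4, the core of the hemidesmosome, and α3β1. When the epithelium moves over a wound bed, receptors for provisional matrix come into use: α5β1 for fibronectin, α2β1 for collagen, and the αv integrins, which bind the RGD peptide motif of fibronectin, vitronectin, tenascin and osteopontin. αvβ6 is also known as an activator of latent TGF-β.

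The sections held 430 to 1288 spots and 3004174 to 11939479 UMIs, single counted RNA molecules. 1 spot reads out a patch of tissue that may cover several neighbouring cells, of 1 type or of many, or a piece of a cell. Levels are given as CPM, a gene's UMIs per 1000000 UMIs of the section, with exact 95% Poisson intervals, which cover counting error only. With 1 section per group no test between groups was possible, and differences between mice or cuts have no measure here. A gene was called higher or lower where its CPM differed by at least 1.5-fold and the intervals did not overlap, given at least 20 UMIs over both sections. Tissue content differed widely: the 9 skeletal muscle markers summed to 4.84% of UMIs in unwounded and 4.02% in day 4 oral mucosa, against 0.115% and 0.0934% in facial skin. Basal keratinocyte markers (Krt5, Krt14 and 5 more) summed to 1.46% and 1.30% in the unwounded and the day 4 facial section, and to 0.274% and 0.467% in oral mucosa. The 6 neutrophil markers, among them S100a8 and S100a9, went against the label of the unwounded facial section. They summed to 5883 CPM there, against 237 CPM in day 4 facial skin, 31.0 CPM in unwounded and 3758 CPM in day 4 oral mucosa. In unwounded facial skin part of that sum lay in spots rich in keratinocyte markers, as given below. Of the 8 wound keratinocyte markers, 6 were also lower in the day 4 than in the unwounded facial section, among them Krt6a (1055 against 2222 CPM) and Krt16 (1998 against 4162 CPM). Other values followed the labels: the 6 regenerating muscle markers summed to 69.5 CPM in the day 4 and 4.52 CPM in the unwounded facial section. The facial labels are used as given and need checking, since every facial day 4 ratio below would turn its sign if they were exchanged. Both day 4 sections held Xist RNA (909 and 84 UMIs) and both unwounded sections held the Y-linked Ddx3y (587 and 280 UMIs), so wounding and the sex of the mouse cannot be told apart. The sections shared barcodes, since Visium slides carry a common barcode list: between 228 and 570 spots of a section had a barcode found in another.

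Among the laminin receptors, Itga6 (chr2:71786886-71858427, GRCm38.p6), the alpha subunit of the hemidesmosome, was at 199 CPM (191 to 207) in the facial section without a wound and 146 CPM (139 to 154) in the facial day 4 one. In oral mucosa it was at 49.97 CPM (44.96 to 55.4) unwounded and 93.9 CPM (83.2 to 105) on day 4. None of the 4 intervals overlapped, so the facial sections were higher and the order within a tissue was opposite, with day 4 the lower section in skin and the higher in mucosa. Itgb4 (chr11:115974725-116008412), its partner in that structure, was at 98.5 CPM (92.95 to 104) and 78.1 CPM (72.7 to 83.8) in the unwounded and the day 4 facial section. It was at 54.4 CPM (49.1 to 59.98) and 59.9 CPM (51.5 to 69.3) in the unwounded and the day 4 oral section, and these intervals overlapped. Itga3 (chr11:95044475-95076844), which pairs with Itgb1 as a second laminin receptor, was at 54.3 CPM (50.2 to 58.6) and 35.5 CPM (31.9 to 39.4) in facial skin, and at 11.7 CPM (9.32 to 14.4) and 32.6 CPM (26.5 to 39.7) in oral mucosa. Both day 4 sections overlapped for Itga3, while the unwounded sections lay at the extremes.

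Itgb1 (chr8:128685654-128733579), the beta subunit shared by α2, α3, α5 and α6, was at 176 CPM (169 to 184) and 132 CPM (125 to 139) in the unwounded and the day 4 facial section. In oral mucosa it was at 90.7 CPM (83.9 to 97.9) unwounded and 199 CPM (184 to 216) on day 4. Day 4 oral mucosa and unwounded facial skin overlapped at the top. Itga5 (chr15:103344286-103366791), the fibronectin receptor's alpha subunit, had the same order: 29.6 CPM (26.6 to 32.9) and 12.1 CPM (10.0 to 14.4) in the unwounded and the day 4 facial section, then 8.65 CPM (6.65 to 11.1) and 29.96 CPM (24.1 to 36.8) in the unwounded and the day 4 oral section. The pair of sections high for Itga5 was therefore unwounded facial skin and day 4 oral mucosa. This pair also held the most neutrophil marker UMIs, in unwounded facial skin partly in spots rich in keratinocyte markers. Their part in the result was not tested. Itga2 (chr13:114833081-114932100), the collagen receptor's alpha subunit, was sparse, with 125, 64, 10 and 13 UMIs in unwounded facial, day 4 facial, unwounded oral and day 4 oral sections. That gave 10.47, 6.44, 1.37 and 4.33 CPM, and the oral sections overlapped each other.

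Among the RGD-binding subunits, Itgav (chr2:83722303-83806917) differed least after Itgb5. It was at 111 CPM (105 to 117) and 87.4 CPM (81.7 to 93.4) in the unwounded and the day 4 facial section, and at 69.9 CPM (63.9 to 76.2) and 99.2 CPM (88.3 to 111) in oral mucosa, and the unwounded oral section was below all the others, while the day 4 oral interval overlapped those of both facial sections. Itgb5 (chr16:33829665-33949338), a vitronectin-binding partner of αv, ran from 47.3 CPM (43.5 to 51.4) in unwounded facial skin to 63.5 CPM (58.7 to 68.7) in day 4 facial skin, with 57.2 CPM (51.9 to 63.0) and 61.2 CPM (52.7 to 70.8) in the unwounded and the day 4 oral section. Its highest section was 1.34-fold above its lowest, the smallest span of the 10 genes. Itgb3 (chr11:104608000-104670476), the beta subunit shared by vascular cells and platelets, had only 106, 58, 27 and 21 UMIs in unwounded facial, day 4 facial, unwounded oral and day 4 oral sections, or 8.88, 5.84, 3.71 and 6.99 CPM. Each section's interval overlapped the next in order for Itgb3. The 8 platelet markers summed to 121, 90.1, 52.8 and 649 CPM in the same order of sections. In the day 4 oral section Pf4 had 759 and Ppbp 1142 UMIs, and both were called higher than in the unwounded one, while Gp9, Gp6 and Treml1 were at 0. Their part in the Itgb3 level was not tested.

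Itgb6 (chr2:60598292-60722603), the epithelial partner of αv, went its own way. It was at 7.71 CPM (6.21 to 9.45, 92 UMIs) and 3.93 CPM (2.79 to 5.37, 39 UMIs) in the unwounded and the day 4 facial section. In oral mucosa it was at 18.5 CPM (15.5 to 21.9, 135 UMIs) unwounded and 17.3 CPM (12.9 to 22.7, 52 UMIs) on day 4. Both oral sections were above both facial sections with no overlap. The annotation places Gm33436 across part of the Itgb6 gene, and how reads in shared bases were assigned is not given in the sources used here. Other annotated overlaps were Gm34845 with Itga2, Mir6963 with Itga5, Dnmt3l-ps1 with Itgav, and B230344G16Rik and Galk1 with Itgb4.

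**Figure D1:**
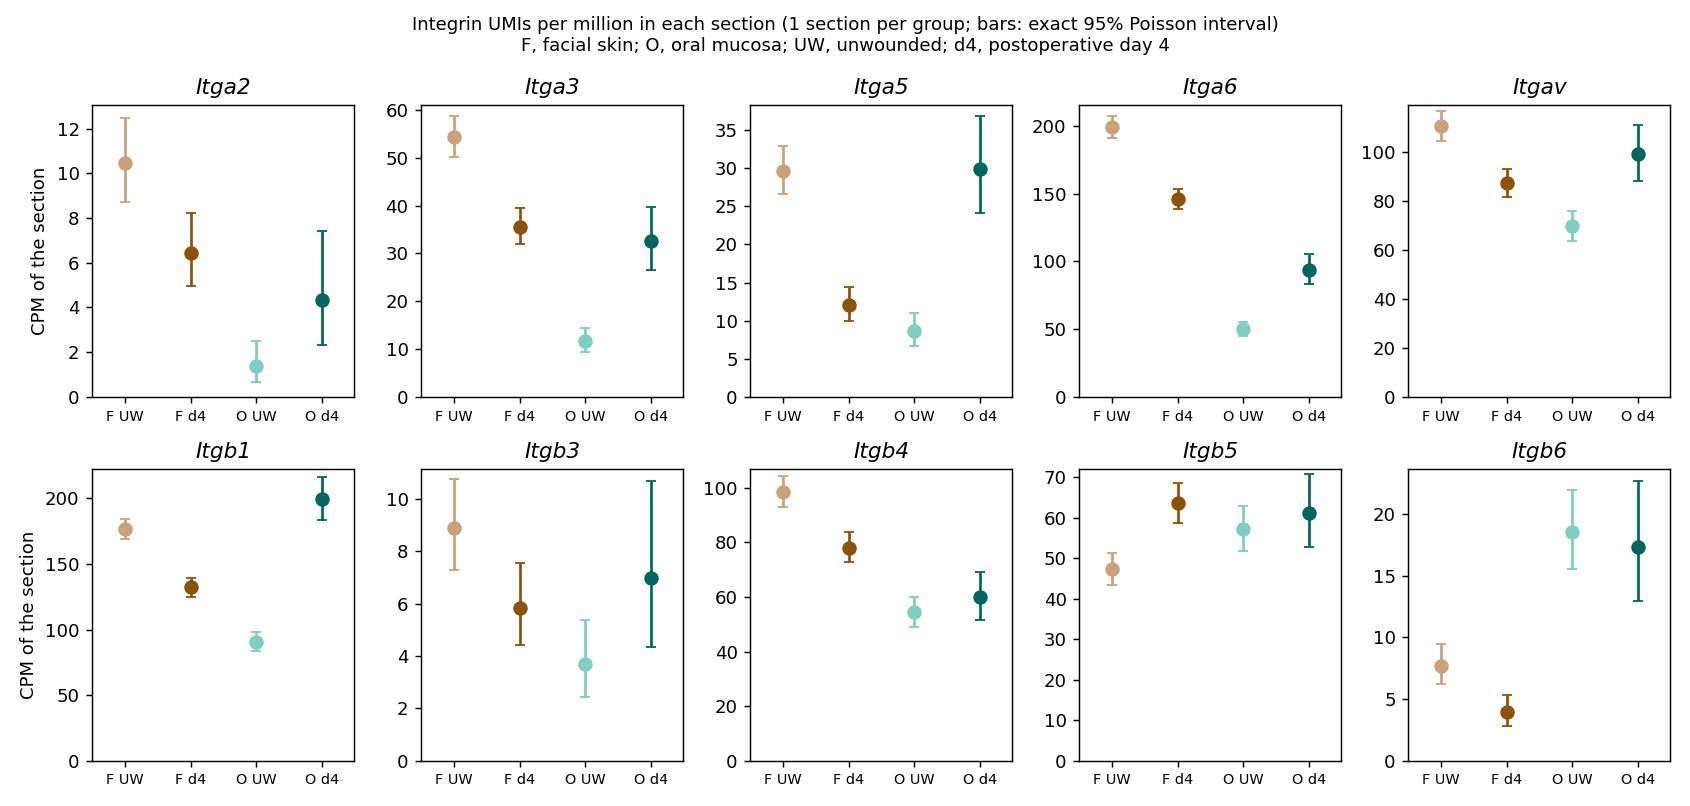
Level of each integrin in the 4 sections, in CPM, with exact 95% Poisson intervals. Each panel has its own axis from 0. Itga5 and Itgb1 are highest in unwounded facial skin and day 4 oral mucosa, and Itgb6 is highest in both oral sections, at 18.5 and 17.3 CPM.

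As labelled, members were called lower on day 4 in facial skin and higher on day 4 in oral mucosa. In facial skin 0 of 10 members were higher and 4 were lower, beside 6.09% higher and 8.59% lower among the 14230 genes considered. The members called lower were Itga5 (log2 ratio -1.30, interval -1.61 to -0.99), Itgb6 (-0.97, -1.55 to -0.42), Itga2 (-0.70, -1.16 to -0.25) and Itga3 (-0.61, -0.80 to -0.42). Of the 6 not called, Itga6, Itgav, Itgb1, Itgb3 and Itgb4 had ratios between -0.60 and -0.33, and Itgb5 was at 0.42. The median over the 10 members was -0.33 and that over all genes -0.04, both computed after adding 10 CPM. Itga5 kept its call under all 16 other scalings and cuts of the sections, while Itga3 and Itga2 each kept it under 10. Some of these could hardly change a call: spots under 1000 UMIs held 0.0894% and 0.291% of UMIs in the unwounded and the day 4 section. The neutrophil-marker region left out held 1.25% of the unwounded section's UMIs. Without part 4 of the day 4 facial section, 1 of 4 parts cut at its median array row and column, 2 members were called in place of 4, and per fibroblast marker UMI 9 were. Fewer cells of a type and less RNA per cell cannot be told apart in these sums.

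In oral mucosa 4 of 10 members were higher on day 4 and 0 were lower, against 20.6% higher and 3.56% lower among 12543 genes. The members called higher were Itga5 (log2 ratio 1.79, interval 1.31 to 2.28), Itga3 (1.48, 1.05 to 1.92), Itgb1 (1.14, 0.97 to 1.30) and Itga6 (0.91, 0.68 to 1.14). Itgav was at 0.51, Itgb3 at 0.92 and Itga2 at 1.66 without a call, the last on 13 and 10 UMIs. Itgb4, Itgb5 and Itgb6 lay between -0.10 and 0.14. The member median was 0.39, beside 0.18 for all genes. With TMM scaling the all-gene median moved to -0.07 and the split of genes to 10.3% higher and 9.70% lower, and Itga6 lost its call. The calls of Itga5, Itga6 and Itgb1 rested on 1 of 4 parts of the day 4 section, cut at its median array row and column. Without part 2, which left 256 of 430 spots, Itga5 was at 0.20 and 1 member, Itga3, was called instead of 4. Without part 3, 7 members were called. Counted per fibroblast marker UMI, the ratios of Itga3, Itga6 and Itgb1 turned to -0.03, -0.60 and -0.38. Fibroblast markers summed to 1755 CPM unwounded and 5005 CPM on day 4, and all 10 macrophage and all 6 neutrophil markers were called higher on day 4. Their part in the integrin ratios was not tested.

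Set against each other, the wound ratio (day 4 over unwounded) was larger in oral mucosa than in facial skin for 9 of 10 members, Itgb5 being the exception at a difference of -0.33. The all-gene median ratio was also larger in oral mucosa, at 0.18 against -0.04 in facial skin. With TMM scaling these medians were -0.07 and 0.005. The share of all genes with a larger ratio in oral mucosa was not counted. The difference was 3.09 for Itga5 (2.54 to 3.64) and 2.09 for Itga3 (1.64 to 2.55) on the log2 scale, and these 2 genes were called in opposite directions. Itgb1 and Itga6, called only in oral mucosa, differed by 1.55 (1.37 to 1.74) and 1.36 (1.12 to 1.60). Itgb4 differed by 0.48 (0.19 to 0.76). The intervals hold counting error alone, and the difference between tissues was not tested over animals. With the facial labels exchanged, the facial ratios of Itga5 and Itga3 would keep their size and turn their sign, to the same direction as in oral mucosa.

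**Figure D2:**
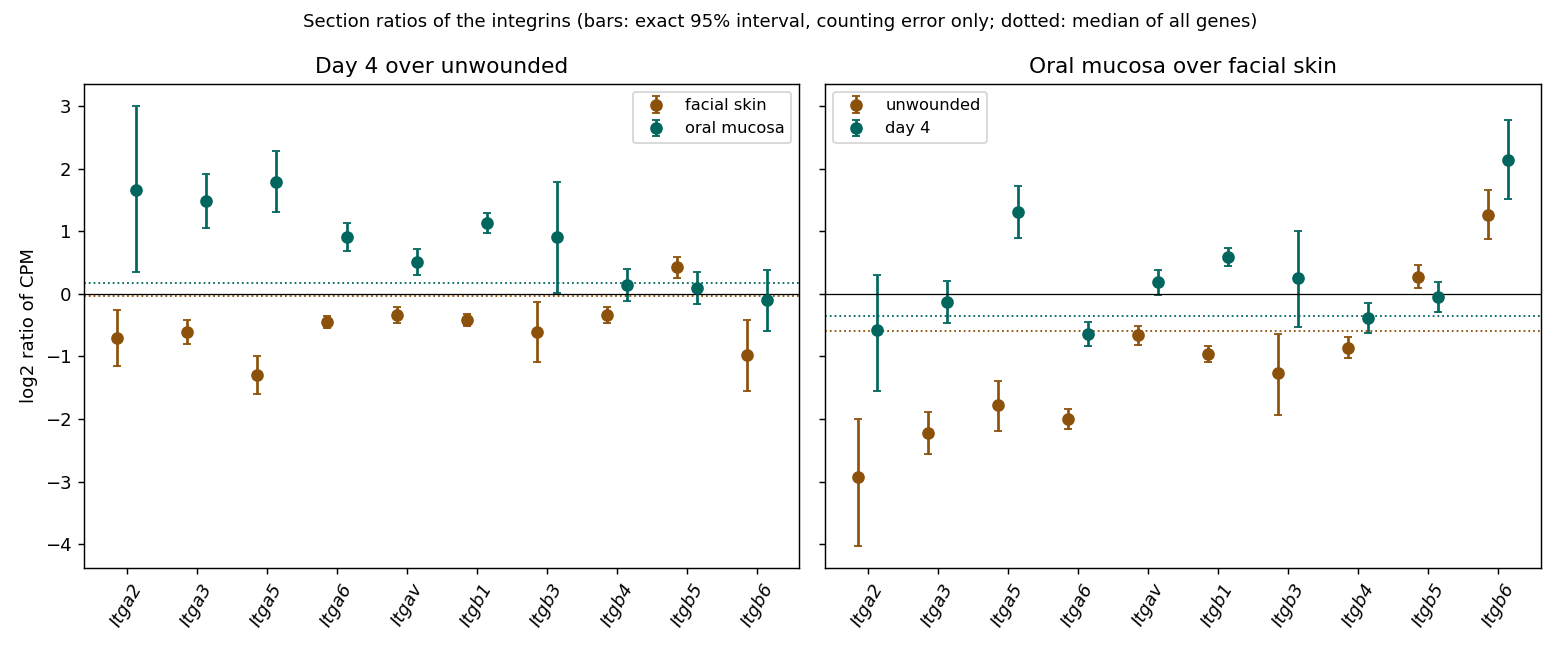
Log2 ratios of CPM for each integrin, day 4 over unwounded (left) and oral mucosa over facial skin (right), with exact 95% intervals for counting error. Dotted lines mark the median of all genes. Itga5 stands at -1.30 in facial skin and 1.79 in oral mucosa for day 4 over unwounded.

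Itga3 and Itga5 carried the opposite calls, and their upstream sequence is shown for that reason. Of the 10 members, 7 had a RefSeq entry of promoter sequence on GRCm38.p6, with 9 start sites in all. 3 motifs were searched on both strands in the 250 bases before each start: TGANTCA (AP-1), GGAATG (TEAD) and GGGCGG (SP1). The 150 bases before 1 start of each gene follow, minus strand, 5′ to 3′, with matches to GGGCGG or its reverse complement in capitals, at chr11:95076715-95076864 for Itga3, chr15:103366792-103366941 for Itga5 and, for comparison, chr2:60722604-60722753 for Itgb6.
Itga3: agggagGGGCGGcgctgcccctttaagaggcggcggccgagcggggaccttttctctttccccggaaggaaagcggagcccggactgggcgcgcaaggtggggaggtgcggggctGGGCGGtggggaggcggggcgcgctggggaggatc
Itga5: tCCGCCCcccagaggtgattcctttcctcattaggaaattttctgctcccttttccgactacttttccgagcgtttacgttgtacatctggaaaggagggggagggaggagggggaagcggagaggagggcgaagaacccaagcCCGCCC
Itgb6: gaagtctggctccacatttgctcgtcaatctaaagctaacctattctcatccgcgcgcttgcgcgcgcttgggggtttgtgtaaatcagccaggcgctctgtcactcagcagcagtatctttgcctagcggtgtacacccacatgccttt
In the 250 bases GGGCGG was found 3 times at this Itga3 start, 1 of them 178 bases before the start and so outside the stretch shown, 2 times at Itga5 and not at Itgb6. Among the other member windows it was found 3 times at Itgb5, which had no day 4 call in either tissue. Itgb1 and the other Itga3 start had 1 match each, and Itga2 and Itgav had none. GGGCGG was in 32.7% of 32851 promoter windows of 250 bases. TGANTCA was in none of the 9 member windows and in 6.75% of all, and GGAATG was in that of Itgb1 alone and in 12.6% of all. A match or its absence describes these letters only.

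Between the unwounded sections, oral mucosa was lower than facial skin for 8 of 10 members and higher for 1, among 14025 genes of which 59.7% were lower and 10.1% higher. Itga2 (log2 ratio -2.93), Itga3 (-2.22), Itga6 (-2.00) and Itga5 (-1.78) stood furthest down, followed by Itgb3 (-1.26), Itgb1 (-0.96), Itgb4 (-0.86) and Itgav (-0.66). Itgb6 was higher at 1.27 (0.87 to 1.66), and Itgb5 at 0.27 was not called. With TMM scaling the split of all genes was 20.3% higher and 27.01% lower, and Itgav (0.10 in place of -0.66), Itgb1, Itgb3 and Itgb4 lost their calls. Counted per basal keratinocyte marker UMI, 7 of the 8 lower members turned to positive ratios, from 0.20 for Itga3 to 1.75 for Itgav, Itga2 staying below 0 at -0.52. In spots where muscle markers held under 1% of UMIs, Itgb6 was at 0.23 and was no longer called.

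On day 4, oral mucosa was higher than facial skin for Itgb6 (2.14, 1.51 to 2.78), Itga5 (1.31, 0.90 to 1.72) and Itgb1 (0.59, 0.45 to 0.73), and lower for Itga6 (-0.64, -0.83 to -0.45). These were 3 higher and 1 lower of 10, beside 11.5% higher and 35.5% lower among 13632 genes (17.2% and 18.6% with TMM scaling). The other 6 members lay between -0.57 for Itga2 and 0.26 for Itgb3. Itgb6 kept its call under all 16 alternatives, some of which left nearly all UMIs in place. Itga5 and Itgb1 turned to -0.28 and -0.14 without the same part of the day 4 oral section, and Itga6 kept its call under 8 of 16.

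Ratios between subunits within a section do not depend on the section total. There were 2.02 Itga6 UMIs per Itgb4 UMI (1.89 to 2.17) in unwounded and 1.87 (1.71 to 2.04) in day 4 facial skin, against 0.919 (0.795 to 1.06) in unwounded and 1.57 (1.29 to 1.90) in day 4 oral mucosa. The ratio of Itga6 to Itgb4 RNA, summed over all cell types of a section, was thus alike in both facial sections and lower in unwounded oral mucosa. Itga5 per Itgav UMI was 0.268 and 0.302 in unwounded facial skin and day 4 oral mucosa, and 0.138 and 0.124 in day 4 facial skin and unwounded oral mucosa. Itgb4 per Itgb1 UMI was 0.558 to 0.599 in 3 sections and 0.301 (0.253 to 0.356) in day 4 oral mucosa. Itgb6 per Itgb5 UMI was 0.324 and 0.283 in the unwounded and the day 4 oral section, and 0.163 and 0.0618 in facial skin.

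Spots were grouped into regions within each section by clustering without the 10 members, so the integrins had no say in the borders. Regions are named by their leading genes. In day 4 oral mucosa 2 regions held most of the Itga5 UMIs. The first, led by the wound keratins Krt17 and Krt16, Ppbp and Sprr2f, had 46 spots and 15.6% of the section's UMIs. It held 58.2% of Itga3, 53.9% of Itgb4, 42.6% of Itga6 and 42.2% of Itga5 UMIs, at 122, 207, 256 and 81.2 CPM. The second, led by Reg3g, Spp1, Ccl2 and Thbs1, had 96 spots and 10.7% of the UMIs. Itga5 there was at 106 CPM (73.2 to 148), Itgb1 at 559 CPM (481 to 647), Itgav at 214 CPM (167 to 271) and Itgb3 at 31.1 CPM on 10 UMIs, while Itgb4 was at 24.9 CPM (10.7 to 49.0). So Itga5 was high in both, Itga3 and Itgb4 mainly in the keratin-led region, and Itgb1 and Itgb3 highest in the Spp1-led one. Neutrophil markers made up 1.58% of UMIs in the first and 0.639% in the second, and macrophage markers 0.507% in the second; their part was not tested. The muscle region led by Myl10 and Myh13 was low for most members, with Itga6 at 11.4 CPM and Itgb4 at 9.94 CPM.

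In unwounded oral mucosa the region led by the cornified envelope genes Lce1b and Kprp held 29.5% of UMIs, 64.7% of Itga3, 62.1% of Itgb4 and 61.8% of Itga6. Itgb4 there was at 114 CPM and Itga6 at 105 CPM. Itgb1 was instead highest, at 309 CPM (254 to 372), in the region led by Cfd, Acta2 and Tagln, where Itgav was at 140 CPM. In unwounded facial skin Itga6 (309 CPM), Itgb4 (141 CPM) and Itga3 (81.3 CPM) were high in the region led by Stfa1 and Stfa3, which had 2.53% basal keratinocyte marker UMIs. Itgb1 (373 CPM), Itga5 (69.3 CPM), Itgb3 (26.8 CPM) and Itgb5 (96.1 CPM) were high in the region led by Acta1 and Cryab, whose fibroblast markers made up 2.50%. The small region led by Cxcl2 and Il1b, with 4.90% neutrophil marker UMIs in 28 spots, had Itga5 at 67.2 CPM on 10 UMIs, Itgb1 at 349 CPM and Itgb3 at 26.9 CPM on 4 UMIs. It held 1.25% of the section's UMIs. Neutrophil markers also made up 1.18% of UMIs in the Stfa1-led region and 0.871% in the Lce3f-led one. Those regions held 16.1% and 20.3% of the section's UMIs, so the section sum did not come from the Cxcl2-led region alone.

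In day 4 facial skin the region led by Stfa3 and Fcgbp held 47.5% of UMIs, 66.2% of Itgb4 and 60.1% of Itga6, with Itga6 at 185 CPM (173 to 197). Itga3 was highest, at 46.9 CPM, in the region led by Lhx2 and Krt28, beside 42.6 CPM in the Stfa3-led one. Itgb1 was highest at 505 CPM (414 to 609), with Itgav at 215 CPM (157 to 287), in a region of 53 spots led by Myh4, H19 and Myl4 in which fibroblast markers made up 3.98%. Itga6 did not follow keratinocyte markers everywhere: the region led by Cxcl5, Spp1, S100a9 and Cthrc1, with 0.367% basal keratinocyte and 4.62% fibroblast marker UMIs, had Itga6 at 181 CPM (148 to 218). It had Itgb1 at 331 CPM and Itga5 at 28.4 CPM (16.6 to 45.5, 17 UMIs), below the 106 CPM of the Spp1-led region of day 4 oral mucosa with no overlap of intervals. Itga3 there was at 18.4 CPM.

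**Figure D3:**
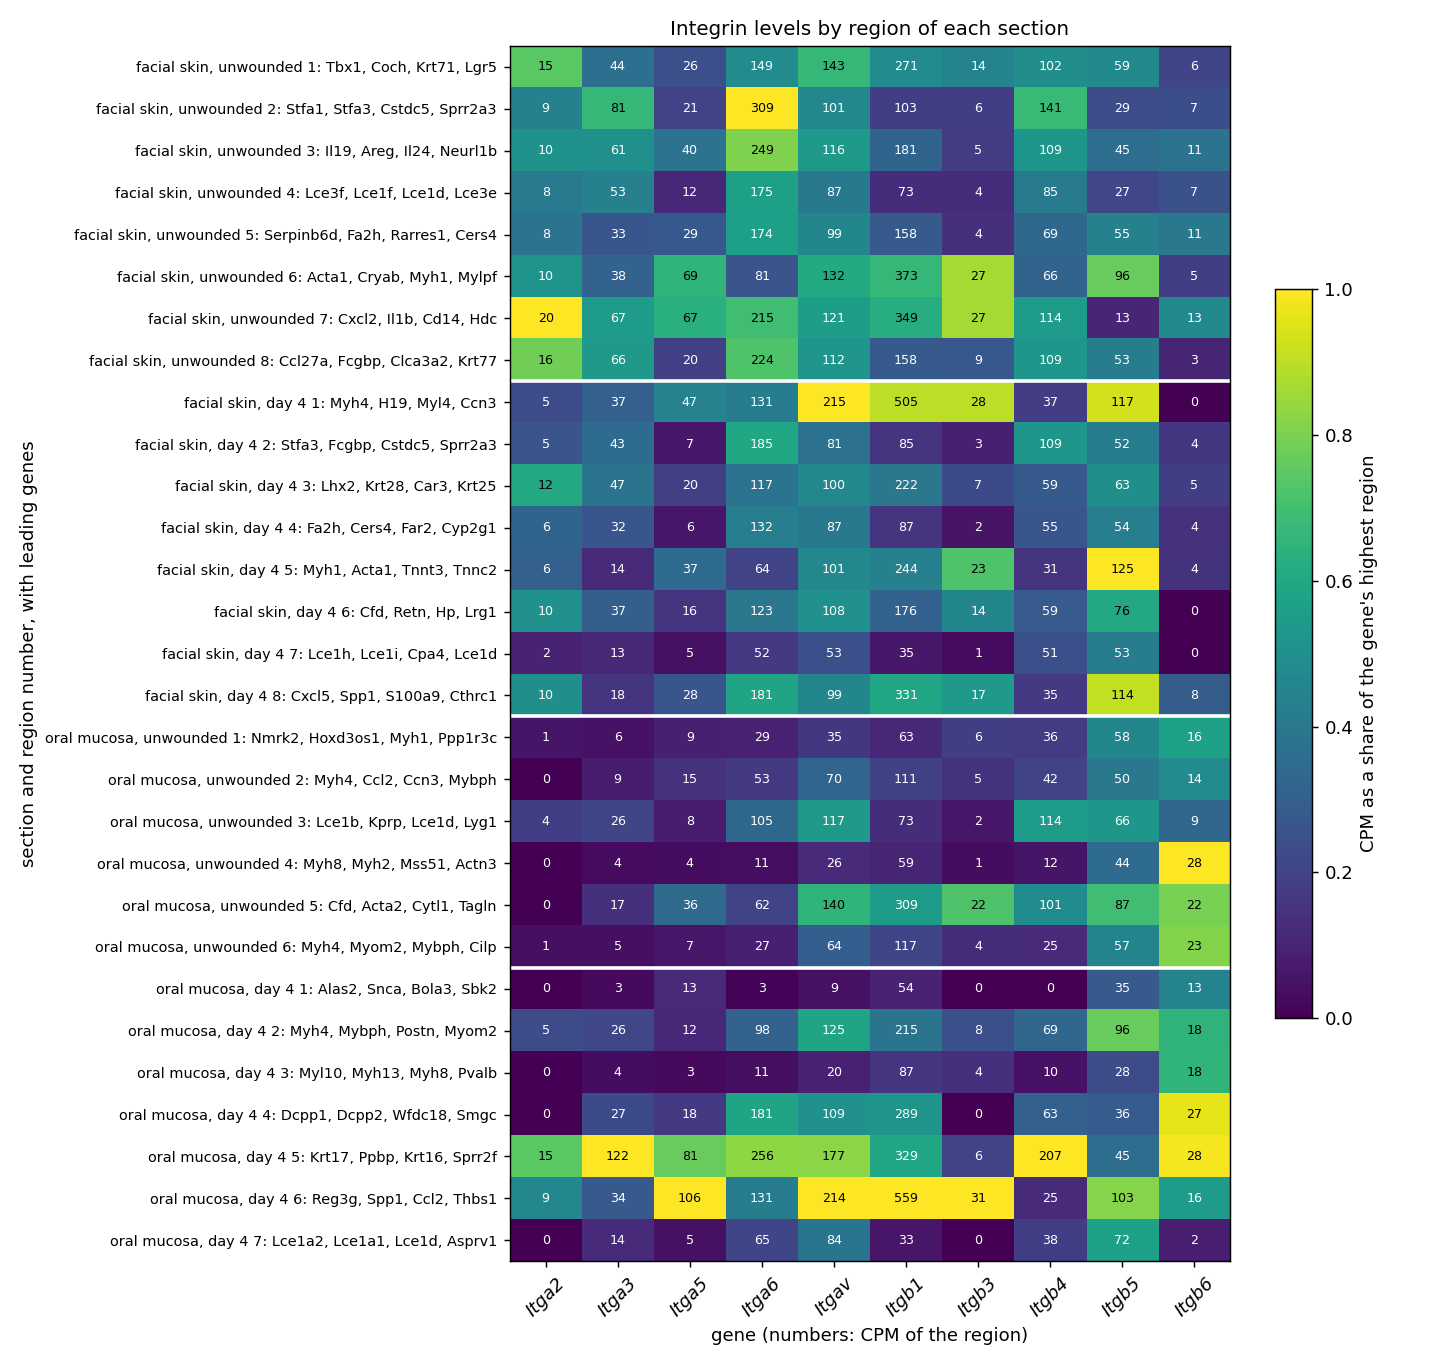
CPM of each integrin in each region that held at least 1% of its section's UMIs. Rows are regions with their leading genes, numbers are CPM, and colour is the share of that gene's highest region. In day 4 oral mucosa the Krt17-led region holds the top values of Itga3 (122) and Itgb4 (207), and the Reg3g-led region those of Itga5 (106) and Itgb1 (559).

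A similar contrast appeared when spots with at least 1000 UMIs were ordered by their share of a marker list and the top quintile was set against the bottom quintile. By basal keratinocyte share, Itga6 was at 303 against 98.3 CPM in unwounded and 190 against 116 CPM in day 4 facial skin. In oral mucosa it was at 131 against 11.4 CPM unwounded and 233 against 18.3 CPM on day 4. Itgb4 followed at 137 against 65.1, 110 against 32.8, 143 against 12.04 and 182 against 7.30 CPM in unwounded facial, day 4 facial, unwounded oral and day 4 oral sections. Both hemidesmosome subunits, and Itga3, were higher in keratinocyte-rich spots of all 4 sections, with intervals of the ratio above 0.

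Itga5 changed sides. It was lower in keratinocyte-rich spots of facial skin, at 25.2 against 46.3 CPM unwounded and 6.99 against 26.7 CPM on day 4. In day 4 oral mucosa it was higher there, at 52.7 against 10.96 CPM (37 and 6 UMIs), and in unwounded oral mucosa it was at 8.88 against 5.07 CPM on 14 and 8 UMIs, an interval that included no difference. By macrophage share Itga5 was higher in the top quintile of all 4 sections, at 55.9 against 13.8, 34.3 against 6.06, 22.6 against 0.767 and 96.9 against 4.45 CPM in the same order of sections as for Itgb4. The bottom quintiles of the oral sections rest on few UMIs, since Itga5 had 63 UMIs in all of unwounded and 90 in all of day 4 oral mucosa. Itgb1 was lower in keratinocyte-rich facial spots, at 122 against 273 and 87.8 against 281 CPM, and higher in those of day 4 oral mucosa, at 260 against 94.96 CPM. By region, the keratinocyte-poor tissue differed between the sites. In day 4 oral mucosa the regions poorest in basal keratinocyte markers were muscle, with 9.04% and 9.43% skeletal muscle markers. In facial skin they were rich in fibroblast markers, at 2.50% unwounded and 3.98% on day 4. Within day 4 oral mucosa the keratin-led and Spp1-led regions had Itga5 at 81.2 and 106 CPM, with overlapping intervals. Itgb1 was at 329 and 559 CPM in them. By fibroblast share Itgb1 was higher in the top quintile of all 4 sections, at 326 against 74.7, 354 against 62.2, 212 against 42.0 and 355 against 110 CPM.

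Itgb6 went against its epithelial name in unwounded oral mucosa. Keratinocyte-rich spots had 8.88 CPM (14 UMIs) and keratinocyte-poor spots 29.1 CPM (46 UMIs), a log2 ratio of -1.72 (-2.69 to -0.83). By skeletal muscle share the top quintile had 21.2 CPM and the bottom quintile 9.50 CPM, a ratio of 1.16 (0.28 to 2.09). The region led by the myosins Myh8 and Myh2 held 41.5% of the section's Itgb6 UMIs at 28.2 CPM (21.3 to 36.6), in 27.2% of its UMIs, while Itga6 and Itgb4 there were at 11.1 and 11.6 CPM. In day 4 oral mucosa the pattern was not seen: the keratin-led region had 27.8 CPM (14.8 to 47.5) and the Myl10-led muscle region 18.5 CPM (9.83 to 31.6), and the muscle quintiles were at 16.1 and 17.2 CPM.

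**Figure D4:**
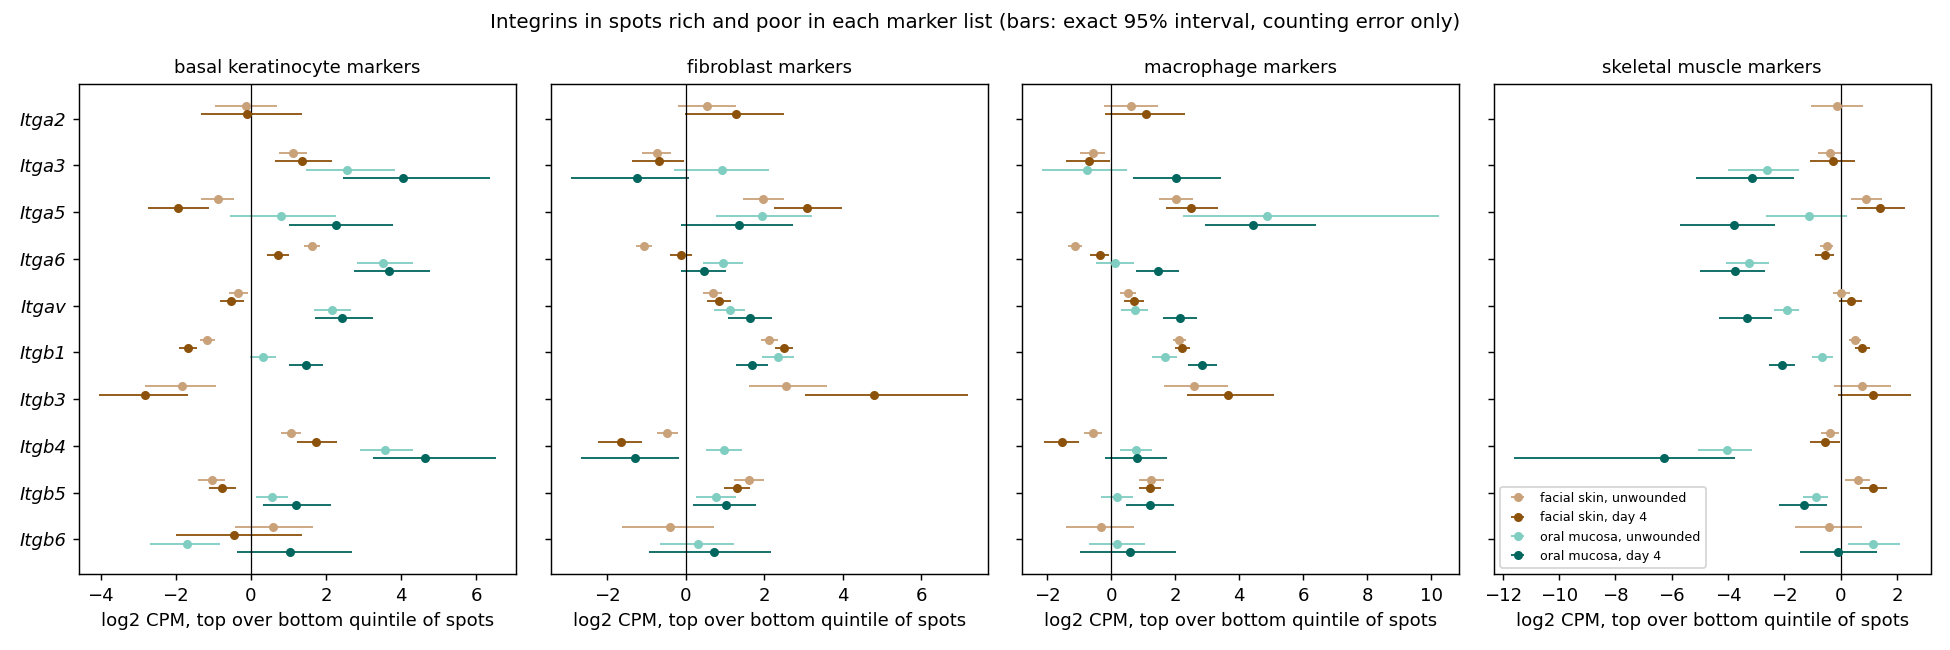
Log2 ratio of CPM between the top and bottom quintile of spots, ordered by the share of 4 marker lists, for each integrin and section, with exact 95% intervals for counting error. Genes with under 20 UMIs over both quintiles, or 0 in either, are not drawn. Itgb4 is above 0 for basal keratinocyte markers in all 4 sections, and Itgb6 is at -1.72 there in unwounded oral mucosa.

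**Figure D5:**
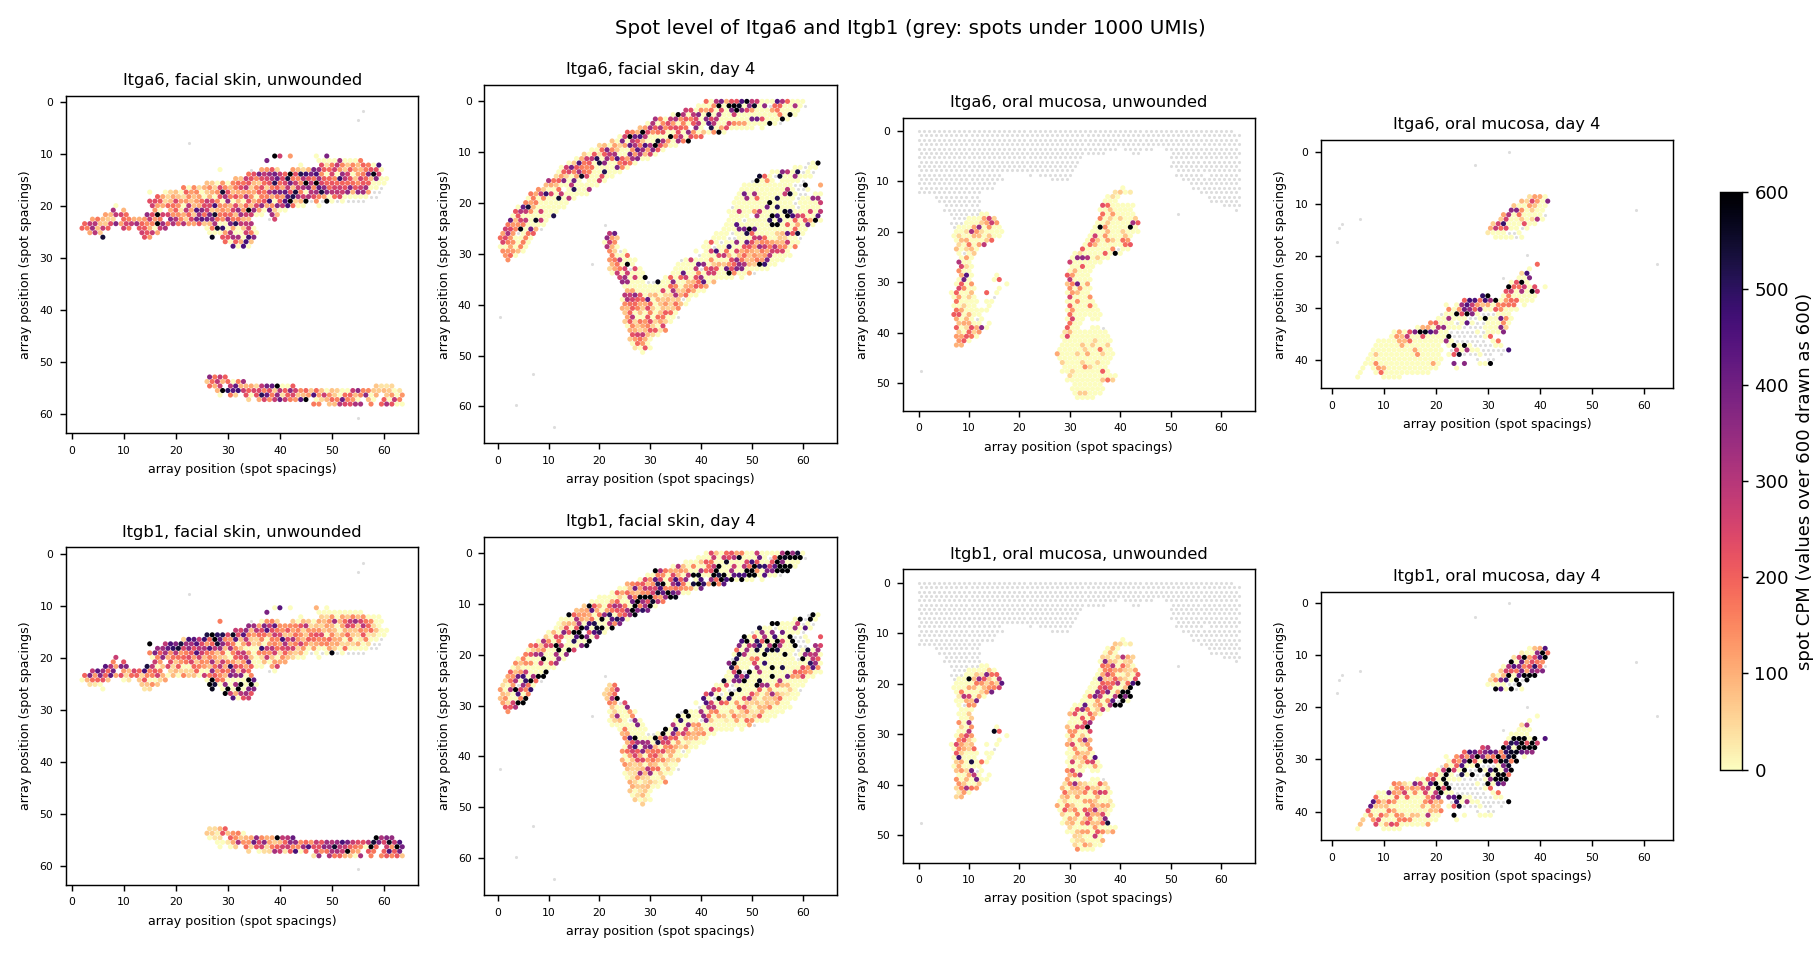
Spot level of Itga6 (top) and Itgb1 (bottom) in CPM, at true relative spot positions. Spots under 1000 UMIs are grey, 765 of them in unwounded oral mucosa, and values over 600 are drawn as 600. In day 4 oral mucosa Itga6 ran by region from 3.16 CPM in the Alas2-led muscle region to 256 CPM in the Krt17-led one. Of the spots with at least 1000 UMIs, 57.6% in unwounded and 63.6% in day 4 oral mucosa had an Itgb1 UMI. For Itga6 these shares were 32.5% and 37.0%. Depth differed, with medians of 13797 and 6657 UMIs per spot in the unwounded and the day 4 oral section. After thinning each spot to 1000 UMIs the shares were 9.56% and 22.2% for Itgb1 and 5.54% and 9.59% for Itga6.

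Single spots held few integrin UMIs. After thinning each spot to 1000 UMIs, 9.56% to 22.2% of spots had an Itgb1 UMI and 5.54% to 17.6% an Itga6 UMI, and 0.382% to 6.58% an Itga3 UMI. Itga2 was found in 0 of 523 such spots of unwounded oral mucosa (exact 95% binomial upper bound 0.703%), where 10 UMIs stood in the full counts. Itgb6 was found in 2.10% and 4.38% of unwounded and day 4 oral spots and in 0.766% and 0.365% of facial spots. Across spots with at least 1000 UMIs, Spearman correlations between members were low, from -0.09 to 0.37 over 180 pairs and sections; all spots of a section share its library. The highest were Itga6 with Itgb4 in day 4 (0.37) and unwounded (0.36) oral mucosa. Among 643 genes with at least 500 UMIs in every section, the mean correlation over the 4 sections was highest with Itga6 for Krt5 (0.40), Krt14 (0.37) and Eef1a1 (0.34). Itgb4 had Krt5 (0.38), Krt14 (0.34) and Sfn (0.34), and Itgb1 had Sparc (0.39), Vim (0.38) and Col1a2 (0.37). No gene reached a mean of 0.3 with any of the other 7 members.

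The ligands, adaptors and other integrins were counted by the same rule. The shares of all genes to read these counts against are 20.6% higher and 3.56% lower in oral mucosa (10.3% and 9.70% with TMM scaling) and 6.09% higher and 8.59% lower in facial skin. Of 13 basement membrane genes, 8 were called higher and 0 lower in day 4 oral mucosa, and 3 higher and 0 lower in day 4 facial skin. Lama3 and Lamb3, laminin chains of the epithelial basement membrane, were at 6.04 and 42.6 CPM and at 24.4 and 57.3 CPM in the unwounded and the day 4 oral section, both called higher on day 4. In facial skin they were at 33.6 and 35.9 CPM and at 71.9 and 76.2 CPM and were not called. Of 13 RGD and provisional matrix genes, 6 were higher and 0 lower in oral mucosa, against 1 higher and 3 lower in facial skin. Fn1, fibronectin, was the one called higher in both: 106 and 586 CPM in oral mucosa and 131 and 288 CPM in facial skin. Tnc, tenascin-C, and Spp1, osteopontin, were at 13.04 and 233 CPM and at 1.92 and 246 CPM in oral mucosa, and at 226 and 113 CPM and at 112 and 36.3 CPM in facial skin. Both thus went the way of Itga5, high in unwounded facial skin and day 4 oral mucosa. Of 8 collagen genes, whose products α2β1 binds, 7 were higher in day 4 oral mucosa (Col1a1 6.88-fold) and 4 in day 4 facial skin (Col1a1 2.06-fold), with 0 lower in either. Vtn, vitronectin, was at 20.9 and 21.0 CPM in oral mucosa and 3.43 and 3.72 CPM in facial skin, higher in oral tissue as Itgb6 was.

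Of 6 hemidesmosome partner genes, 2 were called higher in day 4 oral mucosa and 0 in facial skin, beside 20.6% and 6.09% of all genes. The shares called lower were 3.56% and 8.59%, and the lists that follow are to be read against the same shares. Col17a1, the transmembrane collagen of the hemidesmosome, was at 76.7 and 121 CPM in the unwounded and the day 4 oral section and 328 and 311 CPM in facial skin. The plakin Plec was at 299, 287, 243 and 179 CPM and Dst at 138, 102, 185 and 218 CPM in unwounded oral, day 4 oral, unwounded facial and day 4 facial sections, with no call for day 4 in either tissue. Of 19 focal adhesion adaptors, which link integrin tails to actin, 9 were higher and 0 lower in oral mucosa, led by Actn1 (3.63-fold) and Zyx (2.11-fold), and 1 was higher (Fermt2, 2.09-fold) and 1 lower (Zyx, 1.76-fold) in facial skin. Of 9 latent TGF-β genes, 4 were higher and 1 lower in oral mucosa and 1 higher and 3 lower in facial skin. Tgfb1 was at 49.4 and 28.9 CPM in the unwounded and the day 4 facial section and 18.9 and 21.0 CPM in oral mucosa, and Ltbp1, which holds the latent complex in the matrix, at 44.3 and 20.8 CPM and at 18.4 and 48.3 CPM.

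Of 8 further integrins, listed apart from the leukocyte and platelet integrins, 8 had at least 20 UMIs over both facial sections and 7 over both oral sections. Among them 1 was lower in day 4 facial skin (Itga9, 1.85-fold) and 1 higher in day 4 oral mucosa (Itga4, 3.64-fold on 18 and 12 UMIs). Which cells held the Itga4 RNA was not tested. Itgb8, a further αv partner, ran opposite to Itgb6 between tissues, at 19.9 and 21.7 CPM in facial and 2.47 and 3.99 CPM in oral sections. Of 8 leukocyte and platelet integrins, 7 had at least 20 UMIs over both facial sections and 6 over both oral sections. All 7 were lower in day 4 facial skin, and 3 of the 6 were higher in day 4 oral mucosa. Itgb2, the beta subunit of leukocyte integrins, was at 56.6 and 24.0 CPM in the unwounded and the day 4 facial section and 7.82 and 31.3 CPM in oral mucosa.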

How the data were processed

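The deposited files are Visium count matrices, whole-number UMI counts per gene and spot, whose headers name Space Ranger 1.3.1. Seurat and the mm10 genome stand in the submitters' processing notes, without strand or multi-mapping settings. The tables hold only spots flagged as over tissue, with no doublet caller applied to spots. In unwounded oral mucosa the median was 98 UMIs per spot, and 765 of 1288 spots were under 1000 UMIs and held 0.816% of its UMIs. Mitochondrial genes, counted in the section totals, made up 20.8% and 11.9% of UMIs in the unwounded and the day 4 oral section. They made up 2.71% and 2.75% in the unwounded and the day 4 facial section. Counts were summed per section, region or quintile of spots in Python 3.11.15 (scipy 1.17.1, scanpy 1.11.5), with TMM factors from edgeR 4.0.16. Regions used spots with at least 500 UMIs, 2000 variable genes, 30 principal components, 15 neighbours and Leiden resolution 0.5. All 10 members are named, with at most 4 called genes of each other list, 11 ligand and hemidesmosome genes whatever their values (1 of them is not reported here), and genes alike across spots at a mean correlation of at least 0.3. The members and lists were chosen with earlier results of these data known. Alternatives were other scalings, spot filters, references, regions and parts of a section left out, minimum counts and folds.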

Additional observations from a re-analysis of the deposited data

Results flagged for a closer look

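Itga3 and Itga5 were singled out because the day 4 over unwounded ratio was called lower in facial skin and higher in oral mucosa. The oral log2 ratio minus the facial one was 2.09 for Itga3 (1.64 to 2.55) and 3.09 for Itga5 (2.54 to 3.64), with counting error only. The difference was not tested, since each group held 1 section. It rests on the facial labels, which need checking: with them exchanged, the facial ratios of Itga5 and Itga3 would turn their sign, and neither gene would be called in opposite directions. Beside it, neutrophil markers were at 5883 and 237 CPM in the unwounded and the day 4 facial section and at 31.0 and 3758 CPM in the oral ones, and their part was not tested. Over the alternatives Itga5 ranged from -1.76 to -0.71 in facial skin and from 0.20 to 2.60 in oral mucosa, and Itga3 from -1.08 to -0.39 and from -0.03 to 2.09.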

How the results depend on the processing

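Of 640 alternative log2 ratios, 447 stayed within their own error, 170 moved and 23 called ratios changed sign. Some alternatives could hardly move a ratio, and these counts include them. Spots under 1000 UMIs held 0.0894% to 1.01% of a section's UMIs. The neutrophil-marker region held 1.25% and the salivary gland region 3.68% of theirs. Leaving out part 1 or 2 of unwounded oral mucosa kept 7266138 or 7272449 of 7285023 UMIs. Leaving out part 4 of day 4 oral mucosa kept 2945744 of 3004174. Of 76 alternative counts of called members, 65 were within 1.5 times the main count. In facial skin, day 4 against unwounded, 4 members became 2 with the mean over spots, 9 per fibroblast marker UMI, 2 without part 4 of the day 4 section and 1 at 2-fold. In oral mucosa 4 became 1 without part 2 of the day 4 section and 7 without part 3. Between unwounded tissues 9 became 5 per fibroblast marker UMI. Between day 4 tissues 4 became 2 with the mean over spots, 9 per basal keratinocyte and 7 per fibroblast marker UMI, and 2 at 2-fold. Signs turned as follows. Per fibroblast marker UMI, oral day 4 against unwounded: Itga3 -0.029, Itga6 -0.60, Itgb1 -0.38. Unwounded oral against facial: Itgav 0.10 with TMM; Itgav 0.14 and Itgb4 0.19 in spots under 1% muscle markers; per basal keratinocyte marker UMI Itga3 0.20, Itga5 0.64, Itga6 0.42, Itgav 1.75, Itgb1 1.45, Itgb3 1.15 and Itgb4 1.56; per fibroblast marker UMI Itga5 0.11, Itgav 1.22, Itgb1 0.93, Itgb3 0.63 and Itgb4 1.03. Day 4 oral against facial: Itga6 0.15 in spots under 1% muscle markers, 0.84 per basal keratinocyte and 0.21 per fibroblast marker UMI; without part 2 of day 4 oral mucosa Itga5 -0.28 and Itgb1 -0.14. The causes were not tested. At resolution 1, 35 of 40 highest regional levels stayed within error, and the 5 that moved all rose. In unwounded oral mucosa Itga3 went from 25.6 to 34.0, Itga6 from 105 to 141 and Itgb4 from 114 to 166 CPM. In day 4 facial skin Itga6 went from 185 to 201 and Itgb4 from 109 to 122 CPM. Shares of spots moved with depth by construction. Low counts limit Itga2, Itgb3 and Itgb6, where 3 UMIs equal 0.251 to 0.999 CPM. No paired analysis was possible because each group held 1 section.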
